A study of Mus musculus with 8 samples.

Results

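Gene expression of mouse astrocytes in conventional culture (CV) was compared between day 32 and day 5. The comparison used 4 of the 8 RNA-seq libraries of the study, 2 at CV day 5 and 2 at CV day 32, picked by their titles. The other 4 libraries hold astrocytes of a second culture, called MGS in the titles without an explanation of the letters, at the same 2 days. The sample descriptions call the CV libraries hard and the MGS libraries soft. The labels name the cells of all groups only as mouse astrocytes, and the strain, the age of the animals, the brain region and the medium are not given in the sources used here. Nothing in the labels says that the 2 libraries of a group came from separate cultures or animals, so each p-value here reflects variation among libraries that may be technical repeats.

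Astrocytes are the glial cells that take up glutamate and potassium at synapses, couple to each other through gap junctions and make most of the cholesterol that neurons use. In culture they can divide for weeks, and preparations from brain can also carry microglia, the resident macrophages of the brain, together with oligodendrocyte precursors, ependymal cells and meningeal fibroblasts. Microglia are recognised by genes such as Csf1r, Cx3cr1 and Tmem119, and they are the main source of the complement component C1q in brain.

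Values are TPM, an abundance normalised to transcript length and library total, from the submitters' table, rescaled so that the typical gene has the same level in all 8 libraries, and are called scaled TPM below. The CV libraries were the shallower ones of the series, with 2.99 and 2.50 gigabases of aligned sequence at day 5 and 2.98 and 2.15 at day 32, against 3.90 to 4.69 in the MGS libraries. They were also the less alike: the median SD between replicates on the log2 scale was 0.130 at CV day 5 and 0.194 at CV day 32, against 0.0452 and 0.0503 in the MGS groups. The 10 most abundant genes took 6.17% to 10.5% of all TPM. Astrocyte genes were present in every CV library, with Gfap, the glial filament protein, between 867 and 1631 scaled TPM and Aldh1l1, a pan-astrocyte enzyme of folate metabolism, between 278 and 422.

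Of the 14866 genes tested, 4512 (30.4%) differed between day 32 and day 5 of conventional culture, at an adjusted p under 0.05 in limma with Benjamini-Hochberg adjustment. A gene past that threshold is said below to have risen or fallen. There were 2361 genes that rose (15.9% of those tested) and 2151 that fell (14.5%). Counts of calls in the gene lists below are to be set beside these shares. The split changed with size. At least 8-fold changes comprised 336 rises and 21 falls, and changes of at least 32-fold comprised 120 rises and 0 falls, on the log2(scaled TPM + 1) scale that all fold changes here use. That scale understates the change of genes with low values. The median log2 change of all genes tested was 0.013. Without the rescaling, on TPM as deposited, that median moved to -0.31 and the calls split into 1311 higher and 2177 lower, so 37.6% of calls were rises in place of 52.3%. Correcting for length and GC content of the transcripts gave 2818 higher and 3841 lower, or 42.3% rises. Leaving out day 5 replicate 1 left 1101 calls, leaving out day 5 replicate 2 left 937, and leaving out day 32 replicate 1 left 2491.

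The largest rises belonged to genes of macrophages and microglia. Cd72, a receptor of B cells and macrophages that lies at chr4:43447724-43454626 (mm10, minus strand), had 0.106 and 0 scaled TPM at day 5 and 867 and 643 at day 32. Lyz2, the lysozyme of myeloid cells, had 29.2 and 27.2 at day 5 and 13334 and 11949 at day 32, a log2 change of 8.76 (SE 0.20, limma adjusted p = 0.000621). By day 32 only Apoe, Tmsb4x, Igfbp2 and Fth1 stood above Lyz2 in replicate 1, and only Apoe and Tmsb4x in replicate 2.

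The 3 chains of C1q, the first component of the classical complement cascade, lie side by side on chromosome 4. C1qa (chr4:136895916-136898844) had 2.71 and 2.67 scaled TPM at day 5 and 2357 and 1436 at day 32, C1qb (chr4:136880145-136886177) had 4.18 and 2.95 against 2905 and 1881, and C1qc (chr4:136889802-136892914) had 4.87 and 4.90 against 2094 and 1548. Their log2 changes were 8.96, 9.01 and 8.26. The other genes among the 12 largest rises were Fcrls, Cd52, Alox5ap, Fcer1g, Ly86, Csf1r and Pld4, with log2 changes of 7.51 to 8.66. Csf1r, the receptor that macrophages need for survival, went from 0.915 and 1.17 to 436 and 487. The days did not overlap for any of these 12 genes, which was a condition for picking them. Nor did the days overlap for any of the 4512 called genes or for 71.9% of all genes tested. All 12 were called without any 1 of the 4 libraries.

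**Figure D1:**
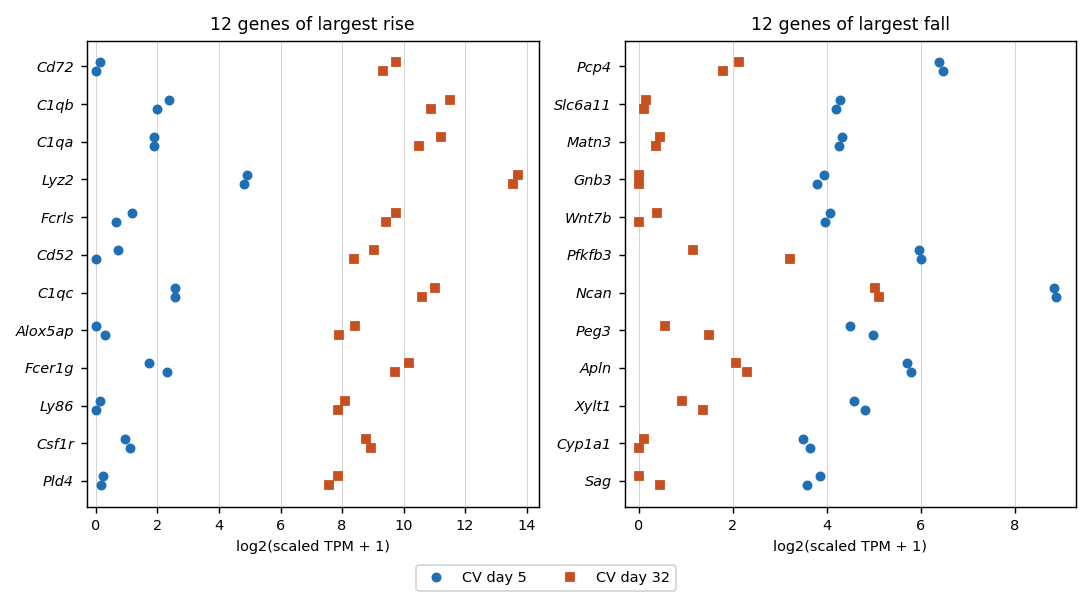
Each point is 1 CV library, at day 5 (circles) or day 32 (squares), for the 12 genes of largest rise and the 12 of largest fall, on the log2(scaled TPM + 1) axis. Cd72 and Lyz2 rise by 9.47 and 8.76 on this scale, while the largest fall, that of Pcp4, is -4.46. The genes shown were picked among those without overlap of the days, which holds for 71.9% of all genes tested.

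The largest falls were smaller than the largest rises. Pcp4, a small regulator of calmodulin found in many neurons, fell from 82.4 and 87.4 scaled TPM to 3.40 and 2.46, a log2 change of -4.46 (SE 0.19, limma adjusted p = 0.000695). Slc6a11, the GABA transporter GAT-3 of astrocytes, fell from 18.6 and 17.3 to 0.119 and 0.0746, a log2 change of -4.11. Ncan, the proteoglycan neurocan of the brain's matrix, fell from 457 and 466 to 31.7 and 33.5, a log2 change of -3.78. Both day 32 libraries lay far below both day 5 libraries for each of these 3 genes, which were picked among genes without overlap of the days.

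Gnb3, a G protein subunit of photoreceptors and taste cells, had 14.4 and 12.8 scaled TPM at day 5 and was listed at 0 in both day 32 libraries. The photoreceptor arrestin Sag went from 13.4 and 10.9 to 0 and 0.378. Wnt7b, a secreted Wnt ligand, went from 15.9 and 14.6 to 0.312 and 0, and the peptide hormone Apln from 51.6 and 54.2 to 3.19 and 3.97. Cyp1a1, the enzyme induced by the aryl hydrocarbon receptor, had 10.2 and 11.5 at day 5 and 0.0903 and 0 at day 32, and between 0 and 0.0230 in the 4 MGS libraries. Matn3, Xylt1, Peg3 and Pfkfb3 made up the rest of the 12, with log2 changes of -3.89, -3.55, -3.72 and -3.79. Pfkfb3, which sets the rate of glycolysis, had 1.24 in 1 day 32 library and 8.33 in the other, and its SE of 0.71 was the widest of the 12. Of these 12 calls, 11 held without day 5 replicate 1 and 10 without day 5 replicate 2.

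All 20 pan-leukocyte and C1q genes tested rose, with a median log2 change of 7.16 against 0.013 over all genes. Summed, the 20 genes went from 82.8 and 75.9 scaled TPM at day 5 to 27638 and 22312 at day 32, or from 0.00841% and 0.00861% of all TPM to 1.96% and 2.09%. The smallest change was that of Ptprc, the leukocyte antigen CD45, which had 0.0386 and 0.0662 at day 5 and 4.70 and 30.5 at day 32, so the day 32 libraries differed widely from each other. Aif1, the microglial protein Iba1, went from 0.340 and 0 to 225 and 132. In these bulk libraries, more cells of a type and more RNA per cell cannot be told apart. Without day 5 replicate 1, and likewise without day 5 replicate 2, 19 of the 20 calls held.

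Genes of homeostatic microglia rose in 9 of 10 tested. Tmem119, a membrane protein of resident microglia, had 0.720 and 0.297 scaled TPM at day 5 and 101 and 86.1 at day 32, a log2 change of 5.98. The fractalkine receptor Cx3cr1 had 0.470 and 0.392 against 149 and 165. The exception was Sall1, a transcription factor that microglia share with neural progenitors, which fell from 27.2 and 30.0 to 8.76 and 11.2 and is named here after its values were seen. Siglech was listed at 0 in all 4 CV libraries. Of the 10 calls, 8 held without either day 5 library taken singly.

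The genes that mark disease-associated microglia were mixed, with 7 rises and 0 falls among 14 tested (0 falls at an unadjusted p under 0.05 in limma). Calls made up 50% of these genes, against 30.4% of all genes tested. Trem2, the lipid receptor on which that state depends, rose from 3.23 and 1.79 to 596 and 348, and Spp1, osteopontin, rose from 47.5 and 44.4 to 5545 and 5232. The oxysterol enzyme Ch25h rose from 0.239 and 0.182 to 155 and 138, and the chemokine Ccl6 from 0.675 and 0.684 to 24.7 and 26.5. The 7 members that were not called included Cd9, Cd63, Csf1 and Axl, which had between 72.0 and 1989.7 scaled TPM already at day 5. Axl differed between the day 32 libraries, at 20.01 and 110. All 7 calls held without each of the 4 libraries in turn.

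Border-associated macrophages, which live in the meninges and along vessels, were represented by 9 tested genes, of which 8 rose. Ms4a7 went from 0.171 and 0.730 scaled TPM to 219 and 189, Stab1, a scavenger receptor, from 0.976 and 0.837 to 100.05 and 124, and Folr2, a folate receptor, from 0.370 and 0.166 to 74.5 and 59.4. Pf4 was listed at 0 at day 5 and had 64.6 and 37.0 at day 32. Lyve1 was not called, with 0 in 3 of the libraries and 0.141 in the other, and Cd163 was listed at 0 in all 4. Of the 8 calls, 7 held without day 5 replicate 1 and 6 without day 5 replicate 2.

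Markers of lymphocytes, neutrophils and mast cells were low or listed at 0 at both days. Of their 12 markers, Cd3g, Cd2, S100a8, S100a9, Ngp, Camp and Cpa3 were listed at 0 in all 4 CV libraries, and 2 had enough signal to be tested. The receptor Kit fell from 5.69 and 6.04 scaled TPM to 0.899 and 1.21. Summed, the list held 6.15 and 6.45 at day 5 and 0.899 and 1.59 at day 32.

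**Figure D2:**
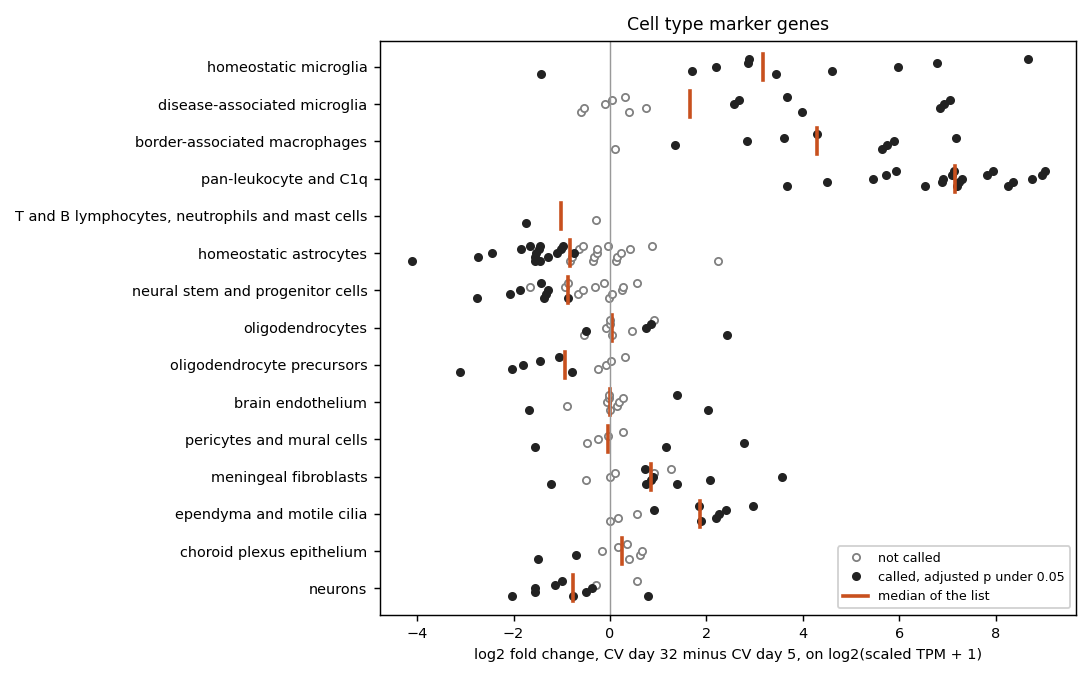
Each point is 1 marker gene, placed by its log2 change from CV day 5 to CV day 32; filled points were called by limma and open points were not, and the bar is the median of the list. The pan-leukocyte and C1q list lies wholly to the right with a median of 7.16, while the astrocyte, progenitor and precursor lists have medians of -0.83, -0.87 and -0.92.

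Homeostatic astrocyte genes fell in 16 of 31 tested and rose in 0 (1 rise at an unadjusted p under 0.05 in limma), with a median log2 change of -0.83. Calls made up 51.6% of these genes, against 30.4% of all genes tested. The list as a whole summed to 13278 and 10979 scaled TPM at day 5 and to more, 33657 and 22108, at day 32. That sum includes Apoe, given below, the most abundant gene of both day 32 libraries. Slc1a2, the glutamate transporter GLT-1, fell from 21.8 and 27.1 to 8.31 and 7.05, a log2 change of -1.55 (SE 0.20, limma adjusted p = 0.00917) that was -0.89 with the length and GC correction. The second glutamate transporter, Slc1a3 (GLAST), had 330 and 406 against 208 and 293 and was not called (adjusted p = 0.145 in limma).

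Gja1, the gap junction protein connexin 43, fell from 254 and 276 scaled TPM to 87.0 and 105, and Aqp4, the water channel of the endfeet, from 323 and 439 to 91.5 and 154. The calcium-binding S100b fell from 34.6 and 32.4 to 9.66 and 7.75. Aldh1l1 was not called, with 422 and 344 against 335 and 278, but it was called lower on TPM as deposited (log2 change -0.72, adjusted p = 0.0287 in limma) and after quantile normalization (-0.66, adjusted p = 0.0157). Of the 16 calls, 3 held without day 5 replicate 1, 4 without day 5 replicate 2, 13 without day 32 replicate 1 and 15 without day 32 replicate 2.

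Apoe, the lipid carrier that astrocytes and microglia both secrete, went the other way without passing the test. It had 5136 and 3272 scaled TPM at day 5 and 25434 and 14564 at day 32, a log2 change of 2.23 with an SE of 0.78 (limma adjusted p = 0.0966), and it was the most abundant gene of both day 32 libraries. Its day 32 libraries lay above both day 5 libraries, and the libraries of each day were apart from each other. On TPM as deposited the log2 change was 1.83 (limma adjusted p = 0.0206). With the length and GC correction it was 1.61 (limma adjusted p = 0.00599), so the call depends on the setting.

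Glial intermediate filaments had 0 of 4 genes called in limma, and 0 at an unadjusted p under 0.05. Gfap had 1631 and 1357 scaled TPM at day 5 and 981 and 867 at day 32, a log2 change of -0.69 (SE 0.27, limma adjusted p = 0.12). That fall was called on TPM as deposited, at -1.09 with an adjusted p of 0.016, and with the length and GC correction, at -0.999 with an adjusted p of 0.00324. Vim, vimentin, had 12584 and 9769 against 12233 and 9988, so the values of both days overlapped, while quantile normalization gave a called fall of -1.22 (adjusted p = 0.0116 in limma).

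Progenitor and precursor genes fell in part. Among 20 genes of neural stem and progenitor cells, 8 fell and 0 rose (1 rise at an unadjusted p under 0.05 in limma). That is 40% called, against 30.4% of all genes tested. The proteoglycan Bcan, brevican, fell from 415 and 326 to 93.9 and 79.1. The phosphatase Ptprz1 fell from 103 and 140 to 25.5 and 40.9. Nfia was not called and had 1.09 in 1 day 32 library and 20.7 in the other. Without day 5 replicate 1 or day 5 replicate 2, 2 of the 8 calls held in each case.

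Of 10 oligodendrocyte precursor genes, 6 fell and 0 rose (1 at an unadjusted p under 0.05 in limma). Cacng4 fell from 18.1 and 14.8 to 0.669 and 1.40, Cspg4, the proteoglycan NG2, from 8.31 and 7.99 to 1.53 and 1.71, and the transcription factor Olig2 from 160 and 132 to 49.6 and 55.7. Pdgfra, the growth factor receptor that defines these cells, was below 1 in every CV library. Mature oligodendrocyte genes gave 3 rises and 1 fall among 11, or 36.4% called, near the 30.4% of all genes tested. Mbp, myelin basic protein, rose from 1.82 and 1.85 to 14.4 and 14.2. Mog and Opalin were listed at 0 in all 4 libraries. Of the 6 precursor calls, 3 held without either day 5 library taken singly, and of the 4 oligodendrocyte calls 1 held without day 5 replicate 1 and 2 without day 5 replicate 2.

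Neuronal genes gave 8 falls and 1 rise among 11 tested, while the list summed to 204 and 225 scaled TPM at day 5 and 266 and 222 at day 32. Map2, a dendritic microtubule protein that glial progenitors also make, fell from 57.0 and 77.8 scaled TPM to 25.1 and 35.5, and the neurofilament Nefm from 13.7 and 12.8 to 5.80 and 6.41. The rise was that of Stmn2, from 99.3 and 104 to 202 and 156, which was not called on TPM as deposited (adjusted p = 0.113). Of the 9 calls, 2 held without either day 5 library taken singly and 4 without day 32 replicate 1.

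Ependymal and motile cilia genes rose in 7 of 10 tested and fell in 0 (0 at an unadjusted p under 0.05 in limma). Dynlrb2, a dynein light chain, rose from 4.20 and 5.19 scaled TPM to 53.4 and 35.5, and Rarres2, chemerin, from 8.32 and 6.59 to 52.0 and 29.6. Foxj1, the master regulator of motile cilia, had 164 and 131 against 235 and 197 and was not called. The list's median log2 change was 1.86, and 1.14 with length and GC corrected. In MGS, without that correction, the median of the same list was 1.10. Of the 7 calls, 3 held without day 5 replicate 1 and 1 without day 5 replicate 2.

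Meningeal fibroblast genes rose in 7 of 13 and fell in 1, Nnat (log2 change -1.23, limma adjusted p = 0.00914). The list summed to 500 and 431 scaled TPM at day 5 and 548 and 569 at day 32. Col3a1, a fibrillar collagen, rose from 5.19 and 4.24 to 59.9 and 73.3, the matrix proteoglycan Dcn, decorin, from 3.28 and 4.85 to 17.4 and 22.8, and the growth factor Igf2 from 25.0 and 21.5 to 61.1 and 64.3. Of these 8 calls, 1 held without either day 5 library taken singly, 4 without day 32 replicate 2 and 4 on TPM as deposited. Endothelial genes gave 2 rises and 1 fall among 11, and mural cell genes 2 rises and 1 fall among 7. Choroid plexus genes gave 0 rises and 2 falls among 8 (1 rise at an unadjusted p under 0.05 in limma). The shares called were 27.3%, 42.9% and 25%, against 30.4% of all genes tested. Of the endothelial genes, the transporter Slco1a4 rose from 17.3 and 23.7 to 75.7 and 95.9. The VEGF receptor Kdr fell from 24.2 and 26.3 to 6.19 and 8.21. Cldn5, which defines brain endothelium, did not exceed 0.0875 in any CV library. Leaving out day 5 replicate 1 kept 0 of the 3 endothelial, 1 of the 3 mural and 0 of the 2 choroid plexus calls of limma, and leaving out day 5 replicate 2 kept 1, 1 and 0.

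Antigen presentation by MHC class I rose in 12 of 13 genes tested, with a median log2 change of 2.13. The class I molecule H2-T23 rose from 5.97 and 4.52 scaled TPM to 153 and 96.8, H2-D1 from 74.5 and 55.4 to 717 and 515, and the immunoproteasome subunit Psmb8 from 8.03 and 7.43 to 205 and 110. Reads of the near-identical H2 genes may have been shared among them. Of these 12 calls, 4 held without either day 5 library taken singly and 8 without day 32 replicate 1.

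MHC class II genes stayed at low levels, and 50% of those tested were called, against 30.4% of all genes tested. Of 6 genes tested, 3 rose: H2-DMb1 from 2.36 and 1.93 to 17.5 and 14.7, H2-DMa from 10.4 and 9.78 to 34.4 and 25.2, and the invariant chain Cd74 from 0.445 and 0.659 to 7.21 and 3.36. H2-Ab1, a class II molecule itself, had 3.19 and 1.19 against 1.83 and 1.45 and was not called. The list summed to 18.3 and 15.0 scaled TPM at day 5 and 65.2 and 46.4 at day 32. Without day 5 replicate 1, 1 of the 3 calls held, and without day 5 replicate 2, 0 held in limma (Cd74 at an adjusted p of 0.114).

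Complement genes other than C1q rose in 10 of 13 tested. C3, the hub of the cascade, rose from 5.26 and 4.10 scaled TPM to 54.3 and 59.3, a log2 change of 3.35 (SE 0.18, limma adjusted p = 0.00115). The anaphylatoxin receptor C3ar1 rose from 0.835 and 0.857 to 76.999 and 86.6. Of the 10 calls, 6 held without either day 5 library taken singly.

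Chemokines rose in 13 of 16 tested, and the inflammatory cytokines with the regulators of NF-kB in 11 of 18. Ccl4 rose from 0.813 and 0.833 scaled TPM to 186 and 118, and Ccl3 from 1.01 and 0 to 80.6 and 79.2. Ccl12 and the cytokine Il1b were listed at 0 in both day 5 libraries and had 72.9 and 42.1, and 59.9 and 49.1, at day 32. Tnf rose from 0 and 0.114 to 46.1 and 40.2. Without either day 5 library taken singly, 8 of the 13 chemokine calls and 5 of the 11 cytokine calls held, and 7 cytokine calls held without day 32 replicate 1 and 6 on TPM as deposited. The inducible synthase Nos2 and Il1a were listed at 0 in all 4 CV libraries.

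Acute reactive astrocyte genes were split, with 8 rises and 3 falls among 15. Lcn2, lipocalin 2, rose from 0.674 and 0 scaled TPM to 12.4 and 10.8, the copper carrier Cp from 24.2 and 32.3 to 170 and 227, and the protease inhibitor Timp1 from 63.0 and 56.2 to 246 and 147. The asparaginase Aspg fell from 24.8 and 16.0 to 3.83 and 3.27. Of the 11 calls, 4 held without either day 5 library taken singly. The 20 pan-leukocyte and C1q genes, all of which rose, moved with the MHC, complement, chemokine, cytokine and reactive genes in the same libraries, from 75.9 to 82.8 summed scaled TPM at day 5 to 22312 to 27638 at day 32, and their part in these results was not tested.

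Interferon-stimulated genes rose in 25 of 26 tested, with a median log2 change of 3.01. Interferons act through the factor ISGF3, which binds a short sequence, the interferon-stimulated response element, near the start of its target genes. Ifi27l2a rose from 5.42 and 2.78 scaled TPM to 962 and 551, a log2 change of 7.21 (SE 0.39, limma adjusted p = 0.00115). Oas1a, a sensor of double-stranded RNA, rose from 0.241 and 0 to 46.5 and 34.8, Oasl2 from 0.734 and 0.590 to 44.0 and 47.7, and Rtp4 from 1.18 and 1.57 to 66.2 and 60.1. Ifit2 was the exception, with 21.7 and 28.5 at day 5 and 12.9 and 22.6 at day 32 (adjusted p = 0.271 in limma), and it is named after its values were seen. Of the 25 calls, 20 held without day 5 replicate 1, 19 without day 5 replicate 2 and 25 without either day 32 library taken singly. Summed, the interferon list went from 552 and 467 to 7090 and 4331, beside the rise of the pan-leukocyte genes from 75.9 to 82.8 up to 22312 to 27638, whose part in it was not tested.

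The letters of the response element, GAAANNGAAA on either strand, stood within the 250 bases before the start of 10 of the 18 interferon-stimulated genes that matched the RefSeq promoter table (GRCm38.p6), or 55.6%, against 2.67% of the 10754 tested genes with a promoter in that table. The 90 bases before the start of Oas1a (chr5:120907526-120907615, minus strand) are shown because they carry a pair of overlapping matches, marked in capitals, the last of which begins 14 bases before the start.
Oas1a: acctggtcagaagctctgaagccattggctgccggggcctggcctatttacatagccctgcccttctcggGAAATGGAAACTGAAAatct

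The core of the motif of PU.1, the transcription factor of the myeloid lineage encoded by Spi1, was searched in the same way in the pan-leukocyte list. Spi1, listed in the files as Sfpi1, rose from 1.15 and 0.418 scaled TPM to 281 and 203. The letters GAGGAAGT on either strand were found in 1 of 14 promoters, that of C1qc, against 2.26% of all. This stretch of C1qc (chr4:136893061-136893150, minus strand) shows the match in capitals, on the opposite strand, 195 bases before the start. These letters and those of the other motifs searched were chosen with the changes of the lists known, and a match is a description of the letters only.
C1qc: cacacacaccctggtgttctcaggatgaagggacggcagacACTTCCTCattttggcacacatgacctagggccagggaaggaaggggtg

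Lysosomal genes rose in 10 of 28 tested and fell in 0 (1 at an unadjusted p under 0.05 in limma). That is 35.7% called, near the 30.4% of all genes tested. The cathepsins led: Ctsh rose from 14.1 and 13.6 scaled TPM to 234 and 195, Ctsb from 306 and 291 to 1467 and 1403, and Ctsz from 197 and 157 to 1069 and 667. The acid lipase Lipa rose from 32.5 and 40.4 to 161 and 212. Subunits of the proton pump such as Atp6v1a, with 105 and 122 against 90.1 and 113, were not called. The median log2 change of the list, 0.39, was -0.013 on TPM as deposited and -0.095 after quantile normalization. Of the 10 calls, 3 held without day 5 replicate 1 and 4 without day 5 replicate 2.

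Genes of lipid uptake and efflux rose in 11 of 15 tested, with a median log2 change of 1.59. The apolipoprotein Apoc2 was listed at 0 at day 5 and had 118 and 67.2 scaled TPM at day 32. Msr1, a scavenger receptor of macrophages, rose from 0 and 0.135 to 49.1 and 61.1, and Apod from 4.76 and 4.004 to 93.5 and 67.9. Abca1, the main cholesterol exporter, had 43.3 and 59.2 against 38.2 and 59.2 and was not called. Of these 11 calls, 6 held without either day 5 library taken singly. The part of the pan-leukocyte genes, which rose in the same libraries as given above, was not tested for the lysosomal and lipid genes either.

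Cholesterol and fatty acid synthesis moved the opposite way, with 20 falls and 1 rise among 29 genes and a median log2 change of -1.01. Hmgcs1, an early enzyme of cholesterol synthesis, fell from 538 and 604 to 149 and 178. Of the later steps, Lss fell from 67.6 and 67.7 to 15.0 and 18.7, a log2 change of -1.95 (SE 0.16, limma adjusted p = 0.00323). The rise was that of Srebf1, from 68.1 and 57.0 to 106 and 99.0, named after its values were seen. The median was -1.39 on TPM as deposited and -0.92 with the length and GC correction. Of the 21 calls, 2 held without day 5 replicate 1, 1 without day 5 replicate 2, 13 without day 32 replicate 1 and 17 without day 32 replicate 2.

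Sterol genes are switched on by SREBP-2 through sterol response elements. The letters CACCCCAC on either strand, a core of that element, were found in 1 of 21 promoters of the list, that of Hmgcs1, against 2.68% of all. The stretch of Hmgcs1 that holds them, 136 bases before the start, is shown (chr13:119690174-119690263, plus strand).
Hmgcs1: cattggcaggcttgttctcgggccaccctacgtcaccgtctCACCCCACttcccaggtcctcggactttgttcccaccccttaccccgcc

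Cell cycle genes fell in 26 of 34 tested and rose in 0 (0 at an unadjusted p under 0.05 in limma), with a median log2 change of -1.41. Rrm2, which makes deoxynucleotides for DNA synthesis, fell from 306 and 306 scaled TPM to 61.5 and 66.2, and Ccnb1, the cyclin of mitosis, from 141 and 153 to 39.4 and 41.7. The mitotic motor Kif11 fell from 48.1 and 62.2 to 11.5 and 15.4, and Mki67, the proliferation marker Ki-67, from 61.8 and 83.1 to 22.9 and 26.4, a log2 change of -1.504 (SE 0.20, limma adjusted p = 0.0103). The whole list summed to 4174 and 4190 at day 5 and 1992 and 1816 at day 32, so these genes were still expressed at day 32. The median was -1.79 on TPM as deposited and -1.37 with the length and GC correction. Without either day 5 library taken singly, 3 of the 26 calls held, and without day 32 replicate 1, 21 held.

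Many genes of mitosis carry the cell cycle homology region, a TTTGAA sequence bound by the DREAM and MuvB complexes. These 6 letters on either strand stood in the 250 bases before the start of 9 of 29 matched cell cycle genes, or 31.0%, against 10.1% of all promoters. Kif11 (chr19:37376292-37376381, plus strand) is shown with a match on the opposite strand 19 bases before the start, and Mki67 (chr7:135716430-135716519, minus strand) with 2 matches, the nearer of which begins 98 bases before the start.
Kif11: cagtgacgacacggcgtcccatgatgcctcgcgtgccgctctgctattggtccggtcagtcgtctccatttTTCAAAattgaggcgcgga
Mki67: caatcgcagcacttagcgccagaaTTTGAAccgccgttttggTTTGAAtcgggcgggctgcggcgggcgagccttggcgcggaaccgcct

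Among 22 p53 targets and inhibitors of the cell cycle, 5 rose and 0 fell (2 at an unadjusted p under 0.05 in limma). The share called was 22.7%, below the 30.4% of all genes tested. Cdkn2a, which encodes p16 and ARF, rose from 22.5 and 13.5 scaled TPM to 283 and 158, Cdkn2b, p15, from 29.3 and 24.7 to 110 and 80.8, and Cdkn1c, p57, from 12.2 and 10.1 to 42.5 and 33.2. Btg2, an antiproliferative early response gene, rose from 41.7 and 40.8 to 166 and 178. Cdkn1a, the p53 target p21, had 503 and 455 against 584 and 535 and was not called (adjusted p = 0.399 in limma). Of the 5 calls, 2 held without day 5 replicate 1 and 1 without day 5 replicate 2.

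Immediate early genes gave 8 rises and 3 falls among 20, or 55% called against 30.4% of all genes tested. Zfp36, which destabilises cytokine transcripts, rose from 40.5 and 38.1 to 276 and 286, Junb from 91.7 and 70.9 to 457 and 363, and Fos from 113 and 116 to 370 and 441. Fosb rose from 2.95 and 2.53 to 17.5 and 23.9. Of these 11 calls, 4 held without day 5 replicate 1, 2 without day 5 replicate 2 and 6 without day 32 replicate 1. The part of the pan-leukocyte genes, which rose in the same libraries from 75.9 to 82.8 up to 22312 to 27638 in sum, was not tested here either.

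Of all genes tested, 30.4% were called, and the share was 26.3% in the ATF4 and unfolded protein response list, 11.8% in the NRF2 list, 18.2% in the heat shock list and 33.3% in the glycolysis and hypoxia list. The ATF4 and unfolded protein response list gave 3 rises and 2 falls among 19, the NRF2 list 1 and 1 among 17, the heat shock chaperones 0 and 2 among 11 (2 rises at an unadjusted p under 0.05 in limma) and the glycolysis and hypoxia list 4 and 4 among 24. Xbp1 rose from 34.6 and 39.5 scaled TPM to 97.2 and 106, the serine synthesis enzyme Psat1 fell from 320 and 323 to 125 and 136, and the angiogenic factor Vegfa fell from 73.6 and 66.0 to 17.3 and 23.1. Slc16a3, the lactate exporter MCT4, rose from 0.752 and 0.689 to 17.6 and 13.4. It was the only member of the 4 lists whose call held without either day 5 library taken singly, and the medians of all 4 lists, between 0.058 and 0.18, fell below 0 on TPM as deposited, where 4 of the 8 glycolysis and hypoxia calls held.

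Ribosomal protein genes were higher at day 32 in 37 of 38 cases, yet 1 was called, Rpl22, which went from 216 and 221 scaled TPM to 471 and 338. Day 32 replicate 1 stood well above replicate 2: the 38 genes summed to 91229 and 50212, against 48931 and 38233 at day 5. The list's median log2 change of 0.67 was 0.015 with length and GC corrected. Among 27 nuclear-encoded respiratory chain genes, 0 rose in limma (1 at an unadjusted p under 0.05) and 1 fell, Ndufs1, from 110 and 119 to 68.1 and 78.2. The call of Rpl22 was also lost on TPM as deposited (adjusted p = 0.0774). Both calls were lost without either day 5 library taken singly and without day 32 replicate 1, where the adjusted p of Rpl22 ranged from 0.0866 to 0.275 and that of Ndufs1 from 0.0974 to 0.252. Histone genes gave 5 rises and 0 falls among 15 (1 fall at an unadjusted p under 0.05 in limma). That is 33.3% called, near the 30.4% of all genes tested. The rises were led by Hist1h4c, from 2.98 and 1.27 to 17.1 and 7.93, and Hist1h1c, from 152 and 130 to 681 and 491. None of the 5 histone calls held without a day 5 library, where limma gave 0 calls in the list and an adjusted p for Hist1h1c of 0.0736 and 0.0956. Histone and ribosomal protein genes have near-identical copies, so their values are uncertain.

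Contractile genes rose in 6 of 17 tested and fell in 1, or 41.2% called against 30.4% of all genes tested. Actg2, an actin of smooth muscle, rose from 7.67 and 6.77 scaled TPM to 96.8 and 68.1, Tpm2, a tropomyosin, from 72.1 and 57.9 to 482 and 272, and Cnn1, calponin, from 93.3 and 82.7 to 527 and 392. Acta2 itself, smooth muscle actin, had 2741 and 2168 against 3653 and 2809 and was not called (adjusted p = 0.49 in limma). Without either day 5 library taken singly, 2 of the 7 calls held, and 4 held without day 32 replicate 1.

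The YAP/TAZ list holds targets of the mechanosensitive factors YAP and TAZ, the genes of these factors themselves (Yap1 and Wwtr1), and Tead1. It gave 4 falls and 0 rises among 19 in limma (2 rises at an unadjusted p under 0.05). The share called was 21.1%, below the 30.4% of all genes tested. Ctgf, a common readout of YAP and TAZ, had 534 and 490 against 853 and 788 and was not called (limma adjusted p = 0.0658). It was called with the length and GC correction, at a log2 change of 0.38 (limma adjusted p = 0.0451). It was not called on TPM as deposited (0.28, limma adjusted p = 0.247) or after quantile normalization (0.24, limma adjusted p = 0.351). The falls included Arhgef17, from 36.8 and 35.5 to 14.4 and 20.8, and Ptpn14, from 36.8 and 43.3 to 18.3 and 24.0. In limma 0 of the 4 calls held without a day 5 library, where the adjusted p of Arhgef17 was 0.187 and 0.196, and the call of Ptpn14 was lost with the length and GC correction (adjusted p = 0.0787) and on TPM as deposited (adjusted p = 0.0523).

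Integrin subunits gave 9 rises and 3 falls among 17, or 70.6% called against 30.4% of all genes tested. Itgb2 and Itgal, which pair as the leukocyte integrin LFA-1, rose from 0.705 and 0.700 scaled TPM to 82.2 and 89.99 and from 0.0411 and 0.0354 to 13.005 and 14.8. Itgb5, a vitronectin receptor subunit, rose from 173 and 144 to 500.3 and 413, while Itgb8, the astrocyte subunit that activates TGF-beta, fell from 22.1 and 35.4 to 1.43 and 4.07. Of these 12 calls, 3 held without either day 5 library taken singly and 7 on TPM as deposited. The pan-leukocyte genes rose in the same libraries, from 75.9 to 82.8 summed scaled TPM up to 22312 to 27638, and their part in the integrin genes was not tested.

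**Figure D3:**
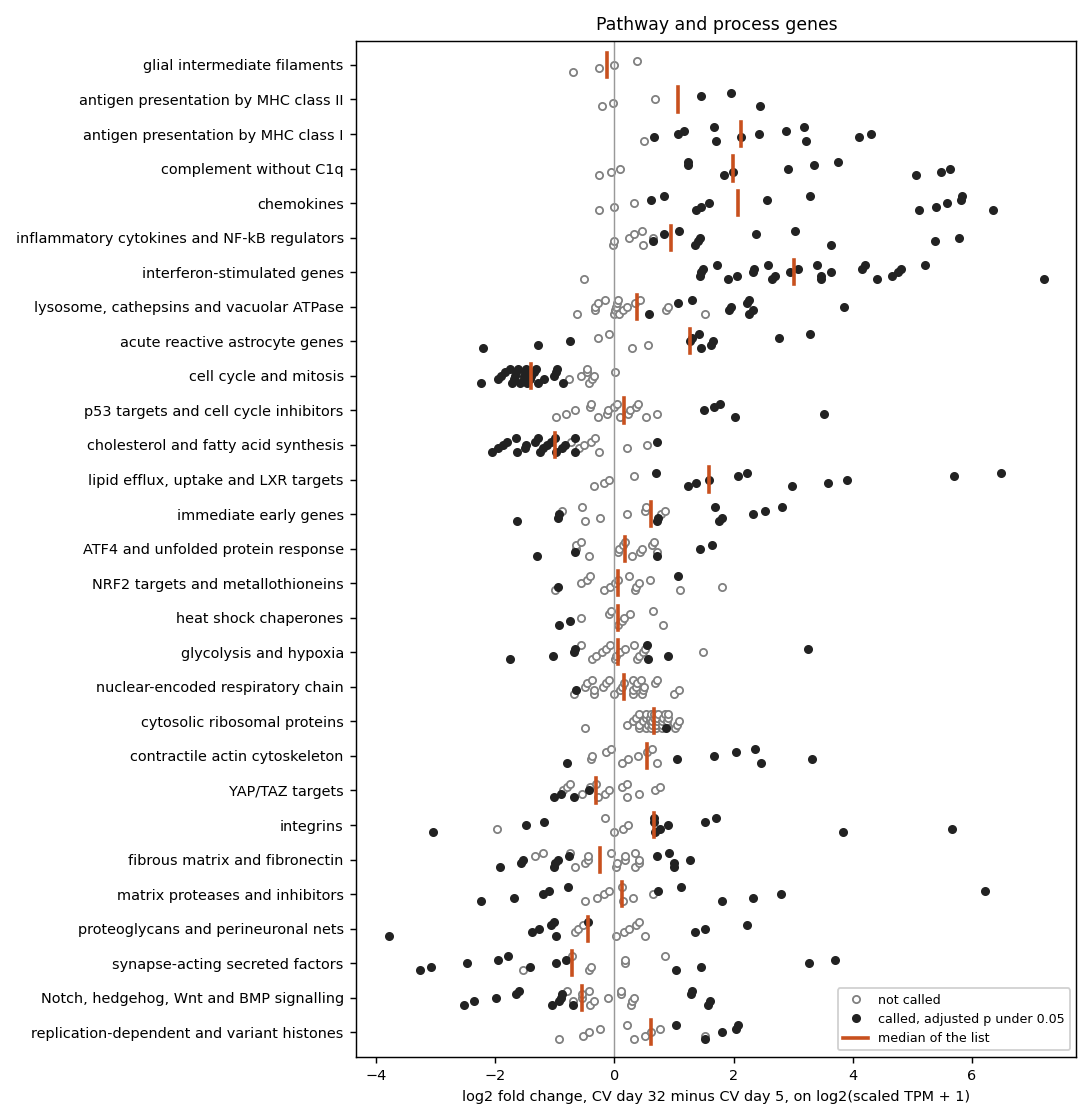
Each point is 1 gene of a pathway list, placed by its log2 change from CV day 5 to CV day 32, filled where called by limma; the bar is the median of the list. The interferon list has its median at 3.01, and the cell cycle and the cholesterol lists at -1.41 and -1.01.

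Fibrous matrix genes were divided between 5 rises and 7 falls among 28, or 42.9% called against 30.4% of all genes tested. Elastin (Eln) fell from 51.8 and 39.03 scaled TPM to 11.97 and 10.3 and periostin (Postn) from 23.6 and 29.7 to 7.43 and 9.76. Col4a1, a basement membrane collagen, rose from 68.6 and 65.5 to 146 and 183, a call lost on TPM as deposited (adjusted p = 0.0771). The list's median of -0.25 became 0.068 with the length and GC correction. Of the 12 calls, 1 held without day 5 replicate 1, 1 without day 5 replicate 2 and 5 on TPM as deposited.

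Matrix proteases and their inhibitors gave 6 rises and 5 falls among 19, or 57.9% called against 30.4% of all genes tested. Adam8, a surface protease of leukocytes, rose from 2.95 and 3.24 to 299 and 314, a log2 change of 6.23 (SE 0.13, limma adjusted p = 0.000621), and the macrophage elastase Mmp12 rose from 0.592 and 0.424 to 8.51 and 10.6. The secreted protease Adamts9 fell from 19.9 and 21.2 to 3.27 and 3.81. Proteoglycans gave 3 rises and 7 falls among 19, or 52.6% called. Besides Ncan, Vcan, versican, fell from 12.6 and 11.2 to 3.71 and 4.19, while the small leucine-rich Omd rose from 4.65 and 5.68 to 25.3 and 30.5. Of the 11 protease calls, 5 held without day 5 replicate 1 and 4 without day 5 replicate 2, and of the 10 proteoglycan calls 3 and 4. The pan-leukocyte genes rose in the same libraries, from 75.9 to 82.8 summed scaled TPM up to 22312 to 27638, and their part in the protease genes was not tested.

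Factors by which astrocytes act on synapses gave 4 rises and 8 falls among 19, or 63.2% called against 30.4% of all genes tested. Sparcl1, hevin, which promotes synapse formation, fell from 762 and 784 scaled TPM to 84.6 and 97.5, a log2 change of -3.07 (SE 0.16, limma adjusted p = 0.00104). Tgfb1 rose from 4.64 and 3.99 to 71.2 and 65.6 and Igf1, which microglia also secrete, from 3.11 and 3.64 to 41.7 and 40.4. Of the 12 calls, 5 held without either day 5 library taken singly. The part of the pan-leukocyte genes, whose sum rose from 75.9 to 82.8 up to 22312 to 27638, was not tested for these factors.

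Developmental signalling genes of the Notch, hedgehog, Wnt and BMP pathways gave 4 rises and 10 falls among 27, or 51.9% called against 30.4% of all genes. The ligand Shh fell from 54.2 and 48.5 to 14.3 and 17.2, and its receptor Ptch1 from 18.8 and 23.6 to 1.27 and 5.43, with day 32 libraries that were themselves apart. The BMP inhibitor Nog fell from 152 and 114 to 34.2 and 31.1 and the Wnt inhibitor Nkd1 from 11.7 and 10.4 to 1.52 and 1.19. Without day 5 replicate 1, and likewise without day 5 replicate 2, 2 of the 14 calls held, and 9 held without day 32 replicate 1.

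Whether these changes with day were those of the other culture was tested as the culture by day interaction, the change in CV minus the change in MGS, in all 8 libraries. The interaction was called for 8966 genes (60.3% of those tested). Of the genes that rose in CV, 83.4% had a called positive interaction, against 31.6% of all genes tested, and of those that fell, 81.5% had a called negative one, against 28.7%. The CV change is part of the interaction, so these shares are a description.

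C1qb had 116.7 and 119 scaled TPM in MGS at day 5 and 125 and 124 at day 32, so the MGS libraries lay between CV day 5 and CV day 32, and the interaction was 8.93 on the log2 scale (SE 0.30, limma adjusted p = 3.33e-06). The 20 pan-leukocyte genes together summed to 1355 and 1377 in MGS at day 5 and 1314 and 1282 at day 32, with a median log2 change of 0.16. Other myeloid lists did change in MGS. The median was 1.92 in MGS and 4.29 in CV for border-associated macrophages, and 0.91 and 3.17 for homeostatic microglia. For disease-associated microglia it was -0.89 and 1.67. Pcp4 ran the opposite way in the cultures, from 82.4 and 87.4 down to 3.40 and 2.46 in CV and from 2.79 and 2.87 up to 41.4 and 41.0 in MGS. Lcn2 gave the largest interaction of the 41 genes for which it was looked up, 10.7 (SE 0.32, limma adjusted p = 2.87e-06), and its MGS values went from 701 and 685 to 3.29 and 2.77.

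Among astrocyte genes, Aqp4 had 422 and 434 at day 5 and 669 and 664 at day 32 in MGS, an interaction of -2.29, and Slc1a2 had 44.7 and 46.8 against 64.1 and 63.5, an interaction of -2.02. These rises in MGS were not those of the whole homeostatic astrocyte list. Its median log2 change was -0.0098 in MGS and -0.83 in CV. In MGS its sum went from 46611 and 47077 scaled TPM at day 5 down to 25713 and 25779 at day 32. The median log2 change of the sterol list was -1.01 in CV and 0.64 in MGS. That of the cell cycle list was -1.41 and -1.12, and the interaction of Mki67, -1.04, changed sign to 0.28 with the length and GC correction. Gfap, Vim, Acta2, Ctgf, Cdkn1a and Slc1a3 had no called interaction, with limma adjusted p between 0.0806 and 0.645. For 4 of them a negative interaction passed the threshold under another scaling: Gfap at -0.57 on TPM as deposited (adjusted p = 0.0162) and -1.15 after quantile normalization (0.00215), Vim at -1.59 after quantile normalization (0.00144), Acta2 at -0.56 after quantile normalization (0.0147), and Ctgf at -0.55 on TPM as deposited (0.0192) and -0.53 after quantile normalization (0.0484).

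**Figure D4:**
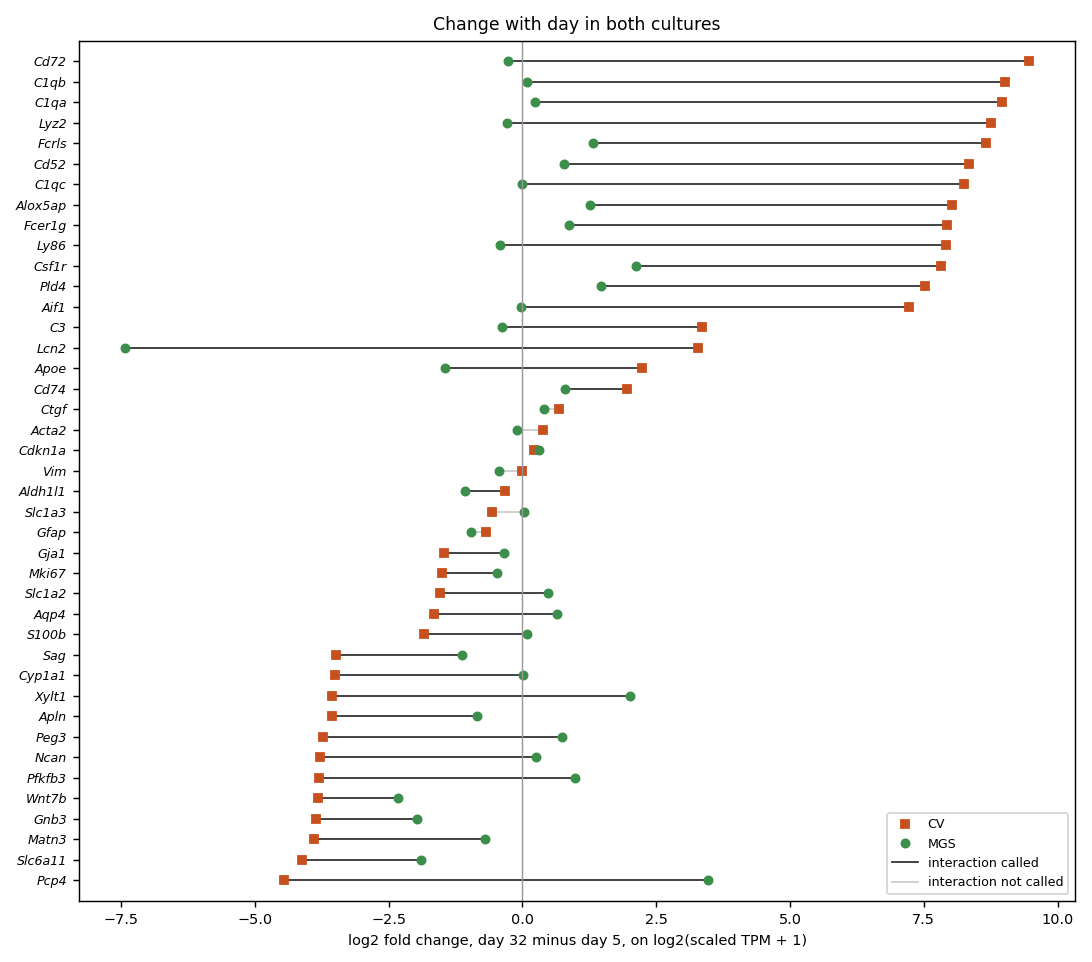
Log2 change from day 5 to day 32 in CV (squares) and MGS (circles) for the 41 genes whose interaction was looked up; dark lines join the values of genes with a called interaction. Lcn2 and Pcp4 move in opposite directions in the cultures, with interactions of 10.7 and -7.92.

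The change with day depended on transcript length. In the eighth of genes with the shortest transcripts, with a median of 1010.5 bases, the median log2 change in CV was 0.53, with 417 rises and 84 falls, and in the eighth with the longest, with a median of 7782 bases, it was -0.53, with 100 rises and 548 falls. In MGS the same eighths had medians of -0.40 and 0.55. Each CV day 32 library showed the slope alone, from 0.80 to -0.70 in replicate 1 and from 0.28 to -0.37 in replicate 2. The lists of short genes, such as pan-leukocyte (median 1351 bases) and ribosomal proteins (1200 bases), and of long genes, such as fibrous matrix (5915 bases), lie at either end of that range. With the length and GC correction the pan-leukocyte median was 6.53, all 20 calls held, and the homeostatic astrocyte median was -0.95. The correction reduced the log2 change of Mki67 to -0.89, Timp1 to 0.88, Cdkn2b to 1.09, Vcan to -0.70, Arhgef17 to -0.44, Hist1h4c to 1.34, Rpl22 to 0.43, Cd74 to 1.28, H2-DMa to 0.95, Map2 to -0.75 and Ptpn14 to -0.30. It enlarged that of other genes, among them S100b to -2.43, Nnat to -1.86, Rrm2 to -2.63 and Hspb8 to -1.49. The part of RNA quality in the slope was not tested.

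**Figure D5:**
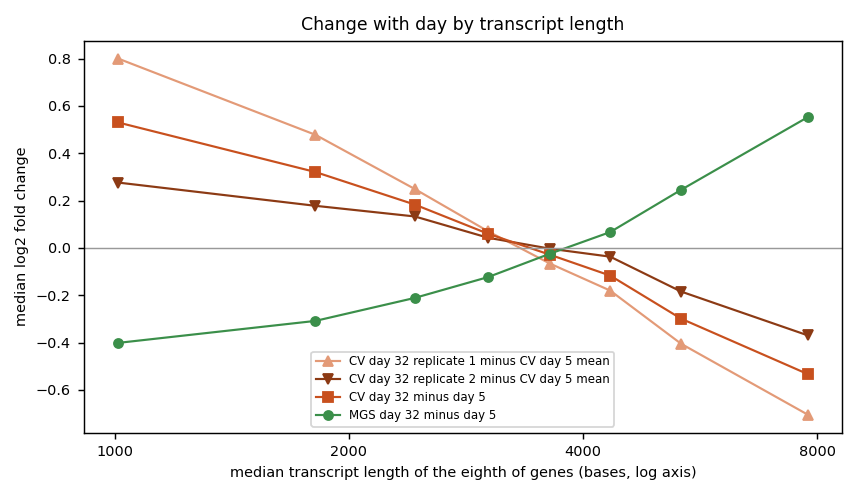
Median log2 change from day 5 to day 32 in 8 groups of genes of rising transcript length (log axis, bases), for CV, for each CV day 32 library against the mean of day 5, and for MGS. The CV lines descend from 0.53 to -0.53 in the mean while the MGS line climbs from -0.40 to 0.55.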

How the data were processed

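Total RNA was extracted with TRIzol and made into libraries with a directional kit, per the labels' protocols. HISAT2 2.1.0 and StringTie 1.3.4d are named in the submitters' processing notes, with the builds hg38 and mm10 and no roles. The gene positions of the files fit the mouse build: of 13738 tested genes matched by symbol and chromosome to RefSeq GRCm38.p6, 99.97% overlapped the gene of that name. The annotation release and the use of strand are not given in the sources used here, so overlapping, antisense and near-identical genes are uncertain.

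The authors deposited TPM for 23401 genes in a table of the whole series, which gave all expression values. FPKM and coverage, the signal per base, come per the file headers from the library files and were used only for the aligned bases per library (coverage divided by FPKM). TPM keeps no depth, so no counting interval is given.

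TPM was divided by median-of-ratios factors over 14499 genes above 0 in all 8 libraries. Genes reaching a TPM of 1 in 2 or more of the 8 libraries were kept, on the scale log2(scaled TPM + 1). limma 3.58.1 in R 4.3.3, with a variance trend and two-sided tests, was fitted to the 4 CV libraries alone, which leaves 2 residual degrees of freedom, because the CV libraries were noisier than the MGS libraries. The interaction used all 8 libraries. The Benjamini-Hochberg adjustment covered all 14866 genes. No exact permutation test of single genes was made, since groups of this size cannot pass the threshold. A fit without 1 library assumes that the lone library of that day varies like those of the other day. The fitting code was run on simulated data with independent noise for each gene and the same spread at both days. The CV libraries differed in spread between the days, so that run does not measure error rates here.

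The 44 lists hold 791 genes, 762 of them tested, and 5 were found under an older symbol. Members and lists were chosen with earlier results of these data known, and lists are described by counts and medians. The text names the 12 largest rises and falls, up to 4 called members of each list, each with at least 5 scaled TPM in the higher group and no overlap of the days, 20 set genes, and exceptions and uncalled members picked after their values were seen. The alternatives were other scalings, pseudocounts, filters, fits and left-out libraries. The mouse GENCODE transcripts gave length and GC for 99.2% of genes. Values of some genes are not reported here.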

Additional observations from a re-analysis of the deposited data

Results flagged for a closer look

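The culture by day interaction, the change with day in CV minus that in MGS on the log2(scaled TPM + 1) scale, was called by limma for 8966 genes. It was looked up for 41 genes, of which 35 were called. The 12 genes of largest rise in CV had interactions of 9.74 (Cd72), 8.93 (C1qb), 8.72 (C1qa), 9.05 (Lyz2), 7.35 (Fcrls), 7.57 (Cd52), 8.26 (C1qc), 6.77 (Alox5ap), 7.06 (Fcer1g), 8.33 (Ly86), 5.70 (Csf1r) and 6.05 (Pld4). Those of largest fall had interactions of -7.92 (Pcp4), -2.23 (Slc6a11), -3.20 (Matn3), -1.90 (Gnb3), -1.50 (Wnt7b), -4.78 (Pfkfb3), -4.03 (Ncan), -4.46 (Peg3), -2.72 (Apln), -5.57 (Xylt1), -3.52 (Cyp1a1) and -2.35 (Sag).

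Among the other genes, the interaction was 10.71 for Lcn2, 7.26 for Aif1, 3.74 for C3, 3.67 for Apoe, 1.15 for Cd74 and 0.75 for Aldh1l1. It was -2.29 for Aqp4, -2.02 for Slc1a2, -1.93 for S100b, -1.11 for Gja1 and -1.04 for Mki67. These genes were chosen in part for their change in CV, so the size of the interaction is partly a consequence of that choice.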

How the results depend on the processing

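The 4512 calls between CV day 32 and day 5 became 8056 with the spread estimated from all 8 libraries, 7464 with the replicate number as a block and 8279 with the replicate block and the length and GC correction together. Without 1 library at a time they ranged from 937 to 5100. The other settings stayed within 1.5 times of 4512, and the interaction count did so under every setting run. Of the 4512 genes, 3123 were called on TPM as deposited, 4332 after quantile normalization and 3889 with the length and GC correction. Of the 171 named genes called, 99 were called without day 5 replicate 1, 94 without day 5 replicate 2, 151 without day 32 replicate 1 and 169 without day 32 replicate 2; such fits keep 1 residual degree of freedom. The replicate numbers come from the titles and nothing ties libraries of equal number. Across genes, the difference between replicates 1 and 2 at day 5 correlated with that at day 32 at 0.444 in CV and -0.134 in MGS. Each value rests on 2 pairs of libraries. In CV the median difference sloped from the shortest to the longest eighth of transcripts. It went from 0.18 to -0.20 at day 5 and from 0.52 to -0.31 at day 32. The replicate block lost 0 of the 171 calls.

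The interaction changed sign, passing the threshold except for Aldh1l1 and Mki67, on TPM as deposited for Gfap (-0.57), Aldh1l1 (-0.0745) and Ctgf (-0.55), after quantile normalization for Gfap (-1.15), Vim (-1.59), Acta2 (-0.56) and Ctgf (-0.53), and with the length and GC correction for Mki67 (0.28, and 0.28 with the replicate block as well). The cause was not tested. Aligned bases limit the low values of the CV libraries, and 2 libraries per day limit every test.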

Other observations

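A small set of genes differed at least 4-fold between the 2 CV day 32 libraries. Among the 9230 genes with a mean of at least 10 scaled TPM at CV day 32 there were 36 such genes (0.39%), against 7 of 9256 at CV day 5, 10 of 9448 at MGS day 5 and 5 of 9967 at MGS day 32. In 31 of the 36 the value of replicate 1 was the lower one, and their median transcript length was 4912 bases, against 3137 for all genes at that level. Examples are Cttnbp2nl, at 0.578 and 40.0, Numb, at 5.21 and 31.5, and the leukocyte antigen Ptprc, at 4.70 and 30.5. Some of the 36 were pairs of near-identical genes: Atp6v0c had 726 and 15.9 while its pseudogene Atp6v0c-ps2 had 0.322 and 517, and Eif3j1 had 0 and 60.4 while Eif3j2 had 52.8 and 2.08. The Eif3j pair was split at CV day 5 as well, with Eif3j1 at 51.1 and 0 and Eif3j2 at 2.86 and 71.2. The 36 genes were picked for the difference, and its cause was not tested.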
